A study of Mus musculus with 9 samples.

Results

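Expression of 10 genes of presomitic mesoderm (PSM) and Notch-dependent segmentation was compared between wild-type (WT) cells and cells lacking either the Cdx factors or T/Brachyury. The set comprised Msgn1, Mesp1, Mesp2, Ripply2, Pcdh8, Dll1, Dll3, Lfng, Hes7 and Rspo3. Its members were chosen by symbol, with earlier results of these data known, and all 10 were found among the 24736 genes of the expression table. Counts and medians over the members are therefore set beside those of all genes as description only. RNA came from 9 cultures of mouse embryonic stem cells taken to a caudal epiblast-like state (CEpiLCs), which models the posterior progenitors of the trunk. There were 3 biological replicates each of WT, of cells mutant for Cdx1, Cdx2 and Cdx4 (CdxKO), and of cells mutant for T, which encodes Brachyury (T/BraKO). All 9 cultures received basic FGF at 10 ng per ml together with LGK974 at 5 uM, which inhibits Porcupine and so blocks WNT secretion. CHIR99021, an inhibitor of GSK3 that activates WNT signalling inside the cell, was added for the last day, and RNA was collected at 72 h, on day 3. Feeder cells were removed by pre-plating before differentiation, and only one line per genotype is named in the labels.

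The PSM is the unsegmented tissue that flanks the posterior neural tube and is cut, from its anterior end, into somites. Cells in it carry a clock in which Notch signalling and its targets switch on and off, and posterior WNT and FGF signals keep the tissue immature until cells reach the anterior PSM. Msgn1 and Tbx6 establish PSM identity, Dll1 and Dll3 are Notch ligands, Lfng and Hes7 are oscillating modulators, and Mesp2 and Ripply2 place the somite boundary.

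Libraries held between 25124344 and 34705361 expected counts, and between 0.343% and 4.21% of these belonged to the ribosomal RNA gene Rn45s. In the T/BraKO libraries T stood at 1777, 2214 and 2894 normalised counts (expected counts divided by the size factor of the library), against 10900 to 14760 in WT and 6285 to 19810 in CdxKO. Cdx4 was at or under the floor of 3 counts in all CdxKO libraries, and Cdx2 and Cdx1 averaged 1031 and 272 normalised counts there against 4199 and 536 in WT. Hprt had 16.8 to 28.1 normalised counts in WT and CdxKO but 3590 to 4138 in T/BraKO, and the Y-linked Ddx3y had 0 counts in every CdxKO library but 1664 to 2754 normalised counts in WT and T/BraKO. The study's methods derive all lines from one XY line. What these levels reflect was not tested, and the effect of genotype and that of any other difference between the lines cannot be told apart in any result below. The 7 caudal epiblast markers include the mutated genes themselves, T, Cdx1, Cdx2 and Cdx4. In a library they summed to 25450 to 32350 normalised counts in WT, 15310 to 29970 in CdxKO and 18670 to 28490 in T/BraKO. In DESeq2, 4 of them (Cdx1, Cdx2, Cdx4 and Wnt8a) were lower in CdxKO than in WT, against 0.358% of all genes. Only T was called in T/BraKO, where 0.937% of all genes were lower. Fibroblast markers summed to 2029 to 5704, and markers of naive embryonic stem cells to 1062 to 2839. The sums were 181 to 1012 for neural, 424 to 1459 for lateral mesoderm and 79.7 to 693 for endoderm markers. Of the 6 lateral mesoderm markers, only Hand1 was called in CdxKO against WT, with 0.335% of all genes higher. It averaged 194 normalised counts in CdxKO and 35.6 in WT (log2 fold change 2.44 ± 0.28, SE, DESeq2 adjusted p = 2.58e-14). Of the endoderm markers, Ttr and Apoa1 were at or under the floor.

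At 72 h, the WT cultures expressed the posterior PSM and clock genes and had little or no RNA of the boundary genes. On the TPM scale, which corrects for transcript length, the WT levels were 37.1 ± 9.31 (SD, n = 3) for Dll3, 36.7 ± 15.7 for Rspo3, 21.7 ± 8.26 for Msgn1, 17.2 ± 11.4 for Hes7, 16.2 ± 2.43 for Dll1 and 10.4 ± 3.70 for Lfng. The libraries of neighbours in this order overlapped down to Dll1, whose 3 libraries (13.4 to 17.8 TPM) lay above those of Lfng (6.12 to 12.8 TPM). Pcdh8 followed at 3.07 ± 0.284 TPM, with no library as high as any of Lfng, and Mesp1 at 0.920 ± 0.743 TPM, with none as high as any of Pcdh8. The lowest levels were those of Mesp2 at 0.353 ± 0.117 TPM and Ripply2 at 0.213 ± 0.0757 TPM, and their libraries overlapped with those of their neighbours. In T/BraKO the order differed, with Msgn1 at 0.443 ± 0.176 TPM below Mesp1, and Lfng at 11.6 ± 0.573 TPM next below Dll3 at 22.9 ± 7.66 TPM, while Pcdh8 stood at 7.87 ± 3.34 TPM. In CdxKO, Msgn1 stood at 28.6 ± 19.97 TPM, and Dll3 was again the highest of the members at 35.6 ± 15.01 TPM.

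**Figure D1:**
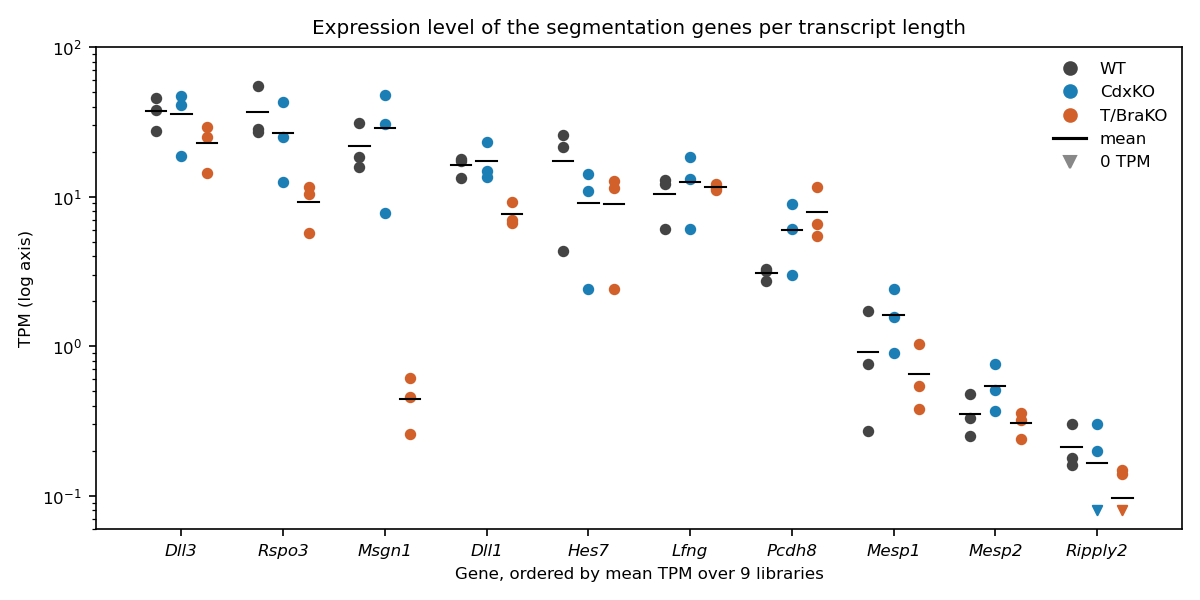
Level of each member in TPM on a log axis, with a point for each of the 9 libraries, a bar for the mean of each genotype, and triangles for libraries at 0 TPM. Dll3 and Rspo3 are the highest in WT, Msgn1 drops to 0.443 TPM in T/BraKO, between Mesp1 and Mesp2, and Ripply2 is the lowest in all genotypes.

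The comparison of T/BraKO with WT asks which of these genes differ in level between the T/BraKO and WT cells. Of the 10 members, 3 were lower in T/BraKO (Msgn1, Rspo3 and Dll1) and 1 was higher (Pcdh8) at an adjusted p of at most 0.05 in DESeq2. Over all 18900 genes tested, 0.937% were lower and 0.148% higher. With the replicate number as a block, 5 of the 7 members that received an adjusted p were lower, Dll3 and Hes7 in addition, and Pcdh8 was again higher, against 4.85% lower and 4.83% higher over all 12773 genes tested. Without the block, edgeR called only Msgn1, and with it, edgeR made the same 6 calls as DESeq2. The median log2 fold change of the 10 members, including Ripply2 at the floor, was -0.79 without the block, against 0.00 over all genes.

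In the comparison of CdxKO with WT, no member was called by DESeq2 or edgeR, while 0.335% of 16737 genes were higher and 0.358% lower in DESeq2. There were 849 genes at an unadjusted p under 0.05 in DESeq2 and 739 in edgeR, and Pcdh8 was the only member among the former. With the block 1 member, Hes7, was lower out of 8 that received an adjusted p, against 1.91% lower and 3.40% higher over all genes. The median log2 fold change of the 10 members, Ripply2 included, was 0.19 without the block, against 0.00 over all genes. Both mutants were compared with the same WT libraries.

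Set directly against each other, the mutants differed in 3 members, Msgn1, Dll1 and Rspo3, all higher in CdxKO, out of 9 that received an adjusted p. Over 16016 genes, 2.52% were higher and 0.962% lower in CdxKO. The block added Dll3, again higher in CdxKO, for 4 of 9 members, against 7.75% higher and 6.90% lower over all genes. The median over the members was 0.82 on the log2 scale, against -0.01 over all genes.

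**Figure D2:**
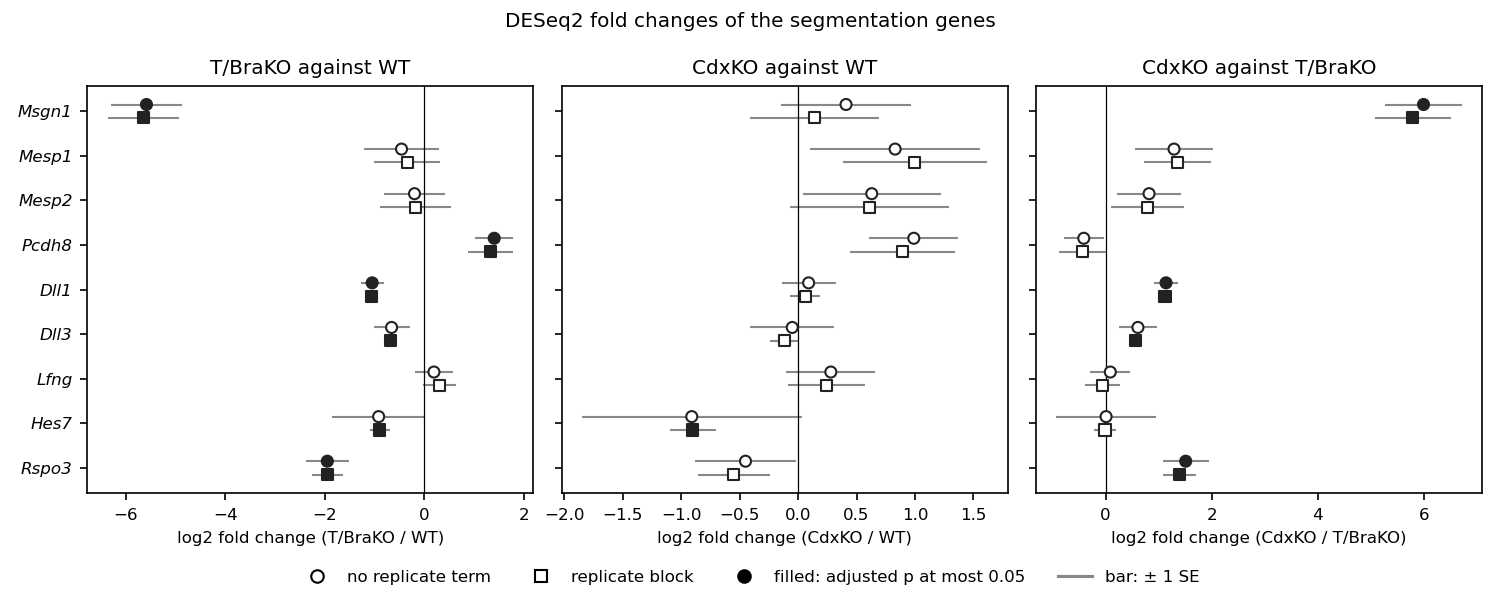
Log2 fold changes of 9 members (Ripply2, at the floor, is left out) in the 3 comparisons, as points with bars of ± 1 SE. Circles are fits without and squares fits with the replicate block, filled where the adjusted p is at most 0.05, and each panel has its own horizontal scale. Msgn1 stands apart on both sides, at -5.58 in T/BraKO against WT and 5.99 in CdxKO against T/BraKO, and the bars of Hes7 shorten from 0.94 to 0.20 with the block.

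Msgn1 (chr12:11208360-11208972, GRCm38) encodes mesogenin 1, a basic helix-loop-helix factor that drives cells into the PSM. It had 219, 128 and 114 normalised counts in WT replicates 1, 2 and 3. In CdxKO it had 339, 54.5 and 219. In T/BraKO it had 3.31, 1.83 and 4.49, from 3, 2 and 5 expected counts. Every T/BraKO library lay far below every other library, and the WT and CdxKO ranges overlapped. How many of all genes have genotypes without overlap was not counted, here or for the members below. The log2 fold change in T/BraKO against WT was -5.58 ± 0.72 (SE, DESeq2 adjusted p = 8.59e-12), a 47.8-fold lower level, and it was called in all 12 fits that left out a library or a replicate number. In same-numbered libraries the T/BraKO level was 1.51%, 1.44% and 3.94% of WT. For CdxKO against WT it was 0.41 ± 0.56 (adjusted p = 1.00), and it was -0.17 without CdxKO replicate 1. In bulk RNA, fewer PSM cells and less Msgn1 RNA in each cell cannot be told apart.

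The bases before the Msgn1 start are shown because Msgn1 had the largest change of the set. RefSeq promoters (GRCm38.p6) were found for 9 of the 10 members, in 10 windows, and the 250 bases before each start were searched on both strands for letters bound by T-box factors (AGGTGTNA), by TCF/LEF, the nuclear effectors of WNT (CTTTGAT), by RBPJ, the nuclear effector of Notch (GTGGGAA), and by CDX factors (TTTATNG). Capitals mark every match to these letters or to their reverse complement. The Msgn1 bases are from chr12:11208973-11209198 on the minus strand, up to the edge of the annotated gene.
Msgn1: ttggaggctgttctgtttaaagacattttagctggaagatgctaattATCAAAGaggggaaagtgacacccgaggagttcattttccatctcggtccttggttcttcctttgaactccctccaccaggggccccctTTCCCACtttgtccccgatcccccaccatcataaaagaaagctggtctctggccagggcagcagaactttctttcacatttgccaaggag
The first run in capitals is a TCF/LEF match, at positions -203 to -197 from the start, and the second is an RBPJ match at -114 to -108. Over 32851 promoters, 3.21% held the TCF/LEF letters and 5.42% the RBPJ letters. TCF/LEF letters were also in the window of Mesp1, at -31 to -25, and so in 2 of the 10 member windows. T-box letters were in none of the 10 windows and in 2.68% of all promoters. When the search was widened, after this result was seen, to the 50 bases past the start, 1 member window held them: TCACACCT begins 6 bases past the start of Mesp1, and 3.03% of all widened windows had such a match. A match is a run of letters and not a measured binding site.

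**Figure D3:**
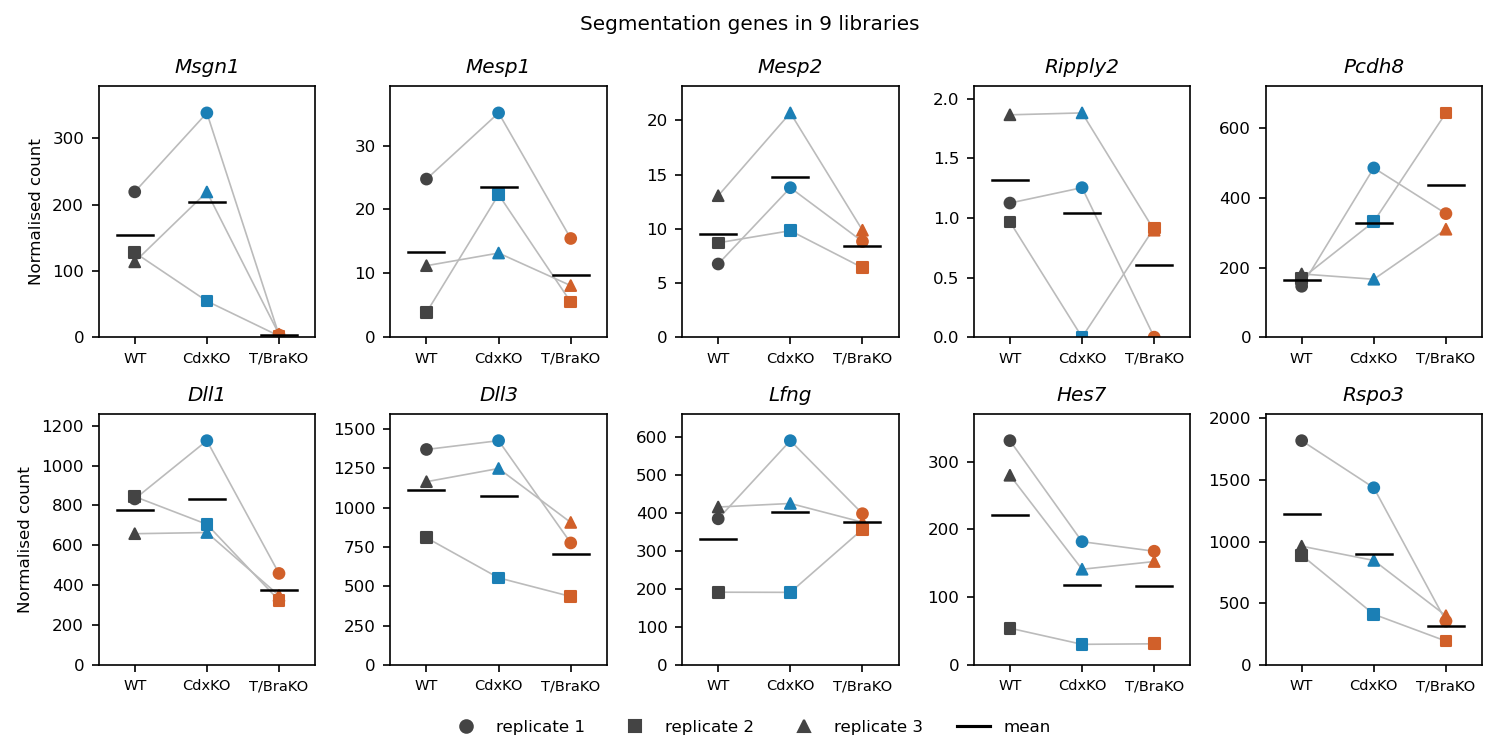
Normalised counts of each member in all 9 libraries, on linear axes from 0. Marker shape gives the replicate number, grey lines join libraries with the same number, and bars are genotype means. Msgn1, Dll1 and Rspo3 have all T/BraKO libraries below all others, Hes7 runs in parallel lines with replicate 2 lowest, and Ripply2 never exceeds 1.88 normalised counts. How many of all genes have all T/BraKO libraries below the others was not counted.

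Of the Notch ligands of the set, Dll1 was lower in T/BraKO, Dll3 was lower there with the block but not in the fit to all libraries without it, and neither was called in CdxKO against WT. Dll1 (chr17:15367354-15376872) encodes the ligand that activates Notch receptors on neighbouring PSM cells. It had 833, 844 and 658 normalised counts in WT and 1125, 705 and 664 in CdxKO. In T/BraKO it had 459, 323 and 348, below all other libraries. The log2 fold change against WT was -1.05 ± 0.23 (DESeq2 adjusted p = 0.00150), a 2.07-fold reduction, and that between CdxKO and T/BraKO was 1.14 ± 0.23 (adjusted p = 9.09e-05). Leaving out all libraries of replicate 2 gave -0.89 against WT with an adjusted p of 0.119, which ended the first call, while the blocked fits called it in 12 of 12 such leave-outs. The difference between CdxKO and WT was 0.09 ± 0.23.

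Dll3 (chr7:28293553-28302238) encodes a divergent ligand that acts inside the same cell and does not activate Notch in its neighbour. It had 1370, 809 and 1165 normalised counts in WT. CdxKO had 1426, 554 and 1249, and T/BraKO had 776, 435 and 906. The genotype ranges overlapped, with replicate 2 lowest in each. Within replicate numbers, T/BraKO was at 56.6%, 53.8% and 77.7% of WT. The log2 fold change was -0.66 ± 0.36 (adjusted p = 1.00) without the block and -0.69 ± 0.12 (adjusted p = 1.49e-06) with it. With the block Dll3 was also higher in CdxKO than in T/BraKO by 0.57 ± 0.12 (adjusted p = 0.000103). Leaving out replicate 2 in all genotypes also gave calls without the block, at -0.60 in T/BraKO against WT (adjusted p = 0.0201) and 0.67 between the mutants (adjusted p = 0.00115). Without T/BraKO replicate 2 alone the blocked differences kept their size, at -0.70 and 0.57, but had adjusted p of 0.0654 and 0.116. Without replicate 1 in all genotypes the difference between the mutants was 0.41 (adjusted p = 0.167).

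Hes7 (chr11:69120404-69124055), a transcriptional repressor that turns off its own gene and is a core part of the segmentation clock, was lower in both mutants with the block but not in the fit to all libraries without it. It had 331, 54.2 and 280 normalised counts in WT. The counts were 182, 30.4 and 141 in CdxKO, and 168, 31.1 and 153 in T/BraKO. Replicate 2 was the lowest in all 3 genotypes, and the genotype ranges overlapped. Within replicate numbers, however, T/BraKO was at 50.7%, 57.5% and 54.5% of WT and CdxKO at 55.0%, 56.1% and 50.5% of WT. Without the block the log2 fold changes were -0.92 ± 0.94 and -0.91 ± 0.94 (adjusted p = 1.00 for each). With it they were -0.90 ± 0.20 in T/BraKO (adjusted p = 0.000287) and -0.90 ± 0.20 in CdxKO (adjusted p = 0.000404). Leaving out replicate 2 gave calls without the block too, at -0.94 and -0.92 (adjusted p = 0.0159 and 0.0237). In the blocked fit, leaving out replicate 1 gave -0.84 in T/BraKO and -0.92 in CdxKO (adjusted p = 0.212 and 0.264), and leaving out replicate 3 gave -0.91 and -0.85 (adjusted p = 0.136 and 0.220), so both calls were lost in these fits. They held in the blocked fit without replicate 2. Between the mutants the blocked difference was -0.01 ± 0.21.

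Lfng (chr5:140607320-140615545) encodes a glycosyltransferase that adds sugars to Notch receptors and cycles with the clock. It had 385, 192 and 416 normalised counts in WT. The CdxKO libraries held 591, 191 and 425, and the T/BraKO libraries 398, 357 and 376. The ranges overlapped, and Lfng was called in no comparison, with or without the block. The blocked log2 fold changes were 0.30 ± 0.33 in T/BraKO and 0.24 ± 0.33 in CdxKO against WT. The replicates differed most in WT and CdxKO, where replicate 2 was at 47.8% and 37.6% of the mean of the others, and least in T/BraKO, where it was at 92.3%.

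The promoters of Hes7 and Lfng are shown because both genes are clock members and, with Msgn1, were the only members whose windows held RBPJ letters. The Hes7 bases are from chr11:69120203-69120403 and the Lfng bases from chr5:140607091-140607319, both on the plus strand and with capitals as above.
Hes7: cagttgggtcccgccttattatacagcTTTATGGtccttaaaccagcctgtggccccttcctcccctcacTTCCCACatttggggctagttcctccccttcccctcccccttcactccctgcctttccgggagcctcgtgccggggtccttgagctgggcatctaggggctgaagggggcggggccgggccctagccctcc
Lfng: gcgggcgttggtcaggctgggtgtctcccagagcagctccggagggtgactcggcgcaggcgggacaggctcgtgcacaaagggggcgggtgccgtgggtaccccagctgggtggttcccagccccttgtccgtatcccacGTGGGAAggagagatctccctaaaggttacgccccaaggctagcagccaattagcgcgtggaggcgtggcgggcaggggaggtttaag
In Hes7 the first run in capitals is a CDX match, at positions -223 to -217 from the start, and the second is an RBPJ match in the reverse orientation, at -180 to -174. CDX letters were present in 9.81% of all promoters. In Lfng the RBPJ match, at -109 to -103, overlaps an E-box (CANNTG, the letters of basic helix-loop-helix factors), and the RBPJ match of Hes7 shares 1 base with another E-box. E-boxes were in 9 of the 10 member windows and in 66.2% of all promoters.

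Replicate 2 was the lowest library in all 3 genotypes for 4 of the 7 members that averaged at least 50 normalised counts, Hes7, Dll3, Lfng and Rspo3. It was so for 25.9% of the 12316 genes at that level, and for neither Mesp1 nor Mesp2, whose levels were lower. In Hes7, replicate 2 was at 17.8%, 18.8% and 19.5% of the mean of replicates 1 and 3 in WT, CdxKO and T/BraKO. In Dll3 these values were 63.8%, 41.4% and 51.8%, and in Rspo3 64.0%, 36.0% and 51.2%. Dll1 and Pcdh8 did not share the pattern. Among the CdxKO libraries, replicate 1 was the highest for 8 members, a pattern that was not counted over all genes. CdxKO replicate 1 also had the highest share of Rn45s counts of all 9 libraries, at 4.21%, followed by T/BraKO replicate 1 at 3.69%. Among the T/BraKO libraries, replicate 1 was the highest for Dll1, Lfng, Hes7 and Mesp1 and not for the other members. The part of Rn45s in these levels was not tested.

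**Figure D4:**
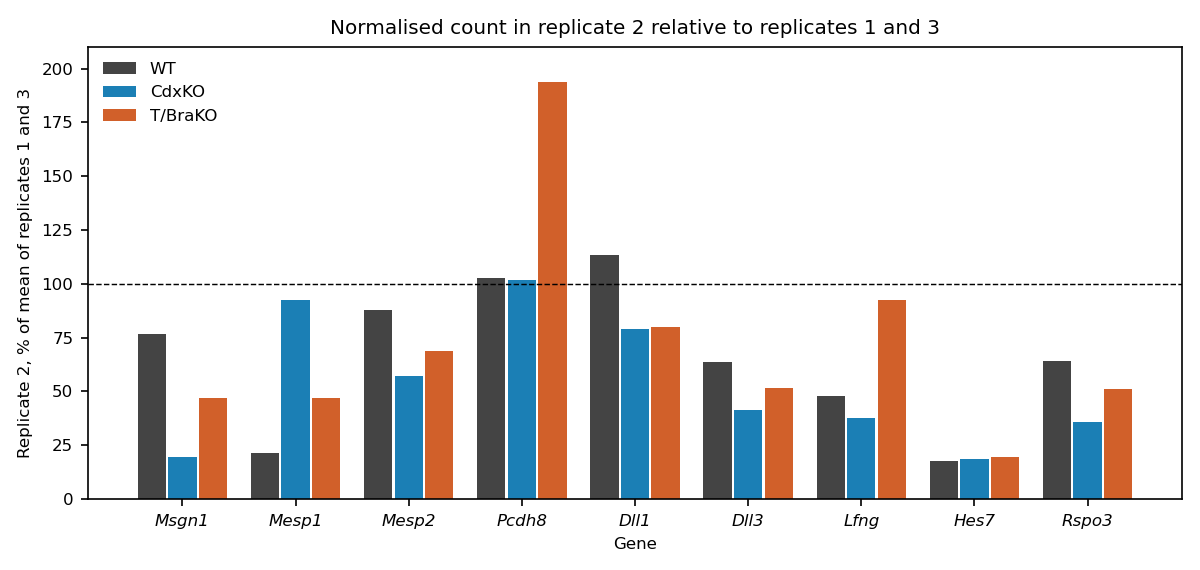
Normalised count of replicate 2 as a percentage of the mean of replicates 1 and 3 of the same genotype, for 9 members, with a dashed line at 100%. The 3 Hes7 bars lie at 17.8%, 18.8% and 19.5%, whereas Pcdh8 in T/BraKO reaches 194%.

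Rspo3 (chr10:29452416-29535867) encodes R-spondin 3, a secreted protein that strengthens the response to WNT. It had 1819, 890 and 963 normalised counts in WT. It had 1437, 411 and 848 in CdxKO, and 355, 193 and 399 in T/BraKO. Every T/BraKO library lay below every other library, and WT and CdxKO overlapped. The log2 fold change in T/BraKO against WT was -1.95 ± 0.43 (DESeq2 adjusted p = 0.00108), a 3.88-fold reduction, and in CdxKO against T/BraKO it was 1.51 ± 0.43 (adjusted p = 0.0169). Without the block, the first call was lost when any one WT library (adjusted p 0.0802 to 0.0848), any one T/BraKO library (0.0752 to 0.204) or CdxKO replicate 3 (0.05996) was left out, or all libraries of replicate 3 (0.352). The second was lost without WT replicate 2 or 3, CdxKO replicate 1 or 3, any one T/BraKO library, or replicate number 1 or 3, with adjusted p of 0.154 to 0.656 and differences of 0.99 to 1.75. With the block both were called in 12 of 12 such fits. Without the block edgeR made neither call (adjusted p = 0.203 and 0.221). Against WT, CdxKO gave a log2 fold change of -0.45 ± 0.43, which was not called. Of 8 fibroblast markers, which could come from feeder cells, Col1a1, Col1a2 and Postn were higher and Thy1 lower in CdxKO than in T/BraKO. Of all genes, 2.52% were higher and 0.962% lower there. In T/BraKO against WT, Postn was lower (-2.58 ± 0.74, adjusted p = 0.0491), and with the block Col1a1 (-0.96 ± 0.12) and Col1a2 (-0.81 ± 0.14) were lower too. Of all genes, 0.937% were lower in T/BraKO than in WT, and 4.85% with the block. The summed level of the list ranged from 2307 to 4165 normalised counts for WT, from 3167 to 5704 for CdxKO and from 2029 to 3439 for T/BraKO, with none at 0, and its part in the Rspo3 differences was not tested.

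Pcdh8 (chr14:79766775-79771312) encodes a protocadherin, a cell adhesion protein of the PSM, and was the member that was higher in T/BraKO. It had 146, 168 and 182 normalised counts in WT and 355, 645 and 310 in T/BraKO, with no overlap. In CdxKO it had 487, 332 and 167, and the third library lay within the WT range. The log2 fold change in T/BraKO against WT was 1.40 ± 0.38 (adjusted p = 0.0245), a 2.64-fold increase, and 1.32 ± 0.45 with the block (adjusted p = 0.0392). This call did not hold without WT replicate 1 (adjusted p = 0.241), 2 (0.104) or 3 (0.0626), without T/BraKO replicate 2 (0.274), or without replicate number 1 (0.266) or 2 (0.638). The log2 fold change was then 1.00 to 1.47. With the block it was lost in 7 of 12 such fits, those without WT replicate 1 or 2, CdxKO replicate 2, any one T/BraKO library or replicate number 2, with adjusted p of 0.0663 to 0.667. In CdxKO against WT the log2 fold change was 0.99 ± 0.38 (adjusted p = 0.469), and it was called at 1.3 without CdxKO replicate 3 (adjusted p = 0.0268) and at 1.37 without replicate number 3 (adjusted p = 0.0354). Between the mutants the difference was -0.41 ± 0.38 and was not called. With the block and without CdxKO replicate 1 it was -0.92, with an adjusted p of 0.00482, and without replicate number 1 it was -0.93, with an adjusted p of 0.0194.

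The Pcdh8 promoter is shown as the other member window that held CDX letters, at chr14:79771313-79771562 on the minus strand.
Pcdh8: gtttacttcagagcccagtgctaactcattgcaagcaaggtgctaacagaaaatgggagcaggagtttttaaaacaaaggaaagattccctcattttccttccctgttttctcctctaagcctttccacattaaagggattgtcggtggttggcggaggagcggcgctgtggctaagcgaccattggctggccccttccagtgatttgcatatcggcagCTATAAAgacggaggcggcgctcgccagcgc
The match, in capitals, runs from position -31 to -25 and contains the letters of a TATA box, which is found at about this distance from many starts.

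The anterior PSM and boundary genes were close to the limit of detection. Mesp1 (chr7:79792241-79793788), a basic helix-loop-helix factor of early mesoderm, had 24.8, 3.87 and 11.2 normalised counts for WT, 35.1, 22.3 and 13.2 in CdxKO and 15.5, 5.50 and 8.07 in T/BraKO. Mesp2 (chr7:79810727-79813439), its neighbour and the factor that positions the somite boundary, had 6.75, 8.71 and 13.1 in WT, 13.8, 9.82 and 20.7 in CdxKO and 8.83, 6.41 and 9.87 in T/BraKO. The genotypes overlapped for both genes and neither was called in any comparison. Log2 fold changes in T/BraKO against WT were -0.46 ± 0.75 for Mesp1 and -0.20 ± 0.62 for Mesp2, and in CdxKO against WT 0.83 ± 0.73 and 0.63 ± 0.59, so differences of this size were not detectable at these counts. Ripply2 (chr9:87015537-87019917), which represses Mesp2 activity once a boundary is set, had 0 to 2 expected counts in each library. All of its libraries were under the floor of 3 counts, 2 of them at 0, where the floor allows up to 0.0894 CPM in CdxKO replicate 2 and 0.105 CPM in T/BraKO replicate 1, and no fold change is given.

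The other genes of the Notch pathway were described as a list. Of 44 other Notch genes, 0 were called in T/BraKO against WT and 0 in CdxKO against WT by DESeq2. Between the mutants 1 was called, against 2.52% of all genes higher in CdxKO. It was the target and repressor Hes1, higher in CdxKO than in T/BraKO by 0.40 ± 0.12 (adjusted p = 0.0237). With the block, 2 of the 41 that received an adjusted p were lower in T/BraKO than in WT, against 4.85% of all genes. They were the receptor Notch1 (-0.26 ± 0.07, adjusted p = 0.00280) and Neurl1a, a ubiquitin ligase that acts on ligands (-0.50 ± 0.11, adjusted p = 0.000172). In CdxKO against WT the block gave 1 call among 42 that received an adjusted p, against 3.40% of all genes higher. This was the protease Furin, which matures Notch receptors, higher by 0.36 ± 0.10 (adjusted p = 0.00975). With the block the direct comparison of the mutants called 7 of the 44 higher and 3 lower in CdxKO, against 7.75% and 6.90% of all genes. Among those lower was Hes3, a repressor related to Hes7, by -2.45 ± 0.47 (adjusted p = 5.18e-06), with 80.2 normalised counts in CdxKO, 443 in T/BraKO and 215 in WT on average. Of the 12 fits that left out a library or a replicate number, the Hes1 call held in 2 without and 8 with the block, and with the block Notch1 and Furin against WT held in 6 and 5, Neurl1a in 11 and Hes3 in 12. The members' median differences above stand beside medians of -0.01, -0.02 and -0.01 over these 44 genes without the block. Rbpj, the transcription factor of the pathway, stood at 57.8 ± 5.69 TPM in WT, Notch1 at 27.8 ± 4.64, and the targets Hes1 and Nrarp at 35.3 ± 1.27 and 24.7 ± 5.20. Hes5, another target, was at 1.80 ± 1.06 TPM. Rbpj, Nrarp and Hes5 were called in no comparison, with or without the block.

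The posterior PSM and progenitor list held calls in both directions in T/BraKO. Of its 9 genes, 4 were lower and 1 higher in T/BraKO against WT, and 5 and 3 with the block. Over all genes the shares were 0.937% and 0.148%, and 4.85% and 4.83% with the block. Tbx6, the T-box factor that specifies PSM, averaged 182 normalised counts in WT, 161 in the Cdx mutant and 17.1 in T/BraKO, a log2 fold change of -3.41 ± 0.55 (adjusted p = 2.05e-07) in T/BraKO and of -0.18 ± 0.51 in CdxKO. Fgf8, a posterior FGF ligand, was lower in T/BraKO by -1.56 ± 0.26 (adjusted p = 5.01e-07), and the WNT ligand Wnt3a by -1.18 ± 0.29 (adjusted p = 0.00726). Fgf17, another FGF ligand, was higher by 0.78 ± 0.19 (adjusted p = 0.00627), and with the block so were Evx1, a homeobox factor of the primitive streak (0.75 ± 0.13), and the WNT ligand Wnt5a (0.55 ± 0.11). The Tbx6 and Fgf8 calls held in all 12 leave-outs, that of Wnt3a in 8 and that of Fgf17 in 6. The blocked calls of Evx1 and Wnt5a held in 12 and 11 of the blocked leave-outs. The list contains T itself, which is mutated in these cells. In CdxKO only Wnt3a was called, at -1.42 ± 0.29 (adjusted p = 0.000460), against 0.358% of all genes lower. With the block 4 genes were lower, Fgf4, Fgf8, Wnt3a and Wnt5a, against 1.91% of all genes. These blocked calls held in 6, 6, 11 and 12 of 12 leave-outs. The median log2 fold change of the list was -1.18 in T/BraKO and -0.19 in CdxKO.

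Of 18 WNT and FGF targets that cycle with the clock, 1 was called in T/BraKO, Sp5, a direct WNT target, which was higher by 0.70 ± 0.12 (adjusted p = 6.19e-06), and none in CdxKO. With the block 4 were higher and 1 lower in T/BraKO, and in CdxKO 1, Has2, was higher by 0.56 ± 0.11 (adjusted p = 1.92e-05). Over all genes, 0.148% were higher in T/BraKO than in WT without the block. With it 4.83% were higher and 4.85% lower in T/BraKO, and 3.40% were higher in CdxKO. Of 15 genes of the anterior PSM and somite, none was called in either mutant against WT. In CdxKO against T/BraKO the ephrin receptor Epha4 was the only one called, higher by 1.68 ± 0.34 (adjusted p = 7.12e-05), against 2.52% of all genes. With the block, Epha4 was lower in T/BraKO by -0.83 ± 0.14 (adjusted p = 1.60e-07) and higher in CdxKO by 0.85 ± 0.13 (adjusted p = 4.49e-08), and Aldh1a2, which makes retinoic acid in somites, was higher in CdxKO by 0.72 ± 0.24 (adjusted p = 0.0428), although only 5 of the 15 genes received an adjusted p. Between the mutants the block added Aldh1a2 (1.37 ± 0.24, adjusted p = 5.77e-07) and Foxc1 (0.85 ± 0.25, adjusted p = 0.00650), both higher in CdxKO. There 8 of the 15 genes received an adjusted p, and 7.75% of all genes were higher. Out of 12 leave-outs, Sp5 against WT held in 11, the blocked Epha4 calls against WT in 9 and 10, Has2 in 12 and Aldh1a2 against WT in 3. The blocked calls of Aldh1a2 and Foxc1 between the mutants held in 11 and 6. Ripply1, the paralogue of Ripply2, averaged 3.26 normalised counts in WT.

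**Figure D5:**
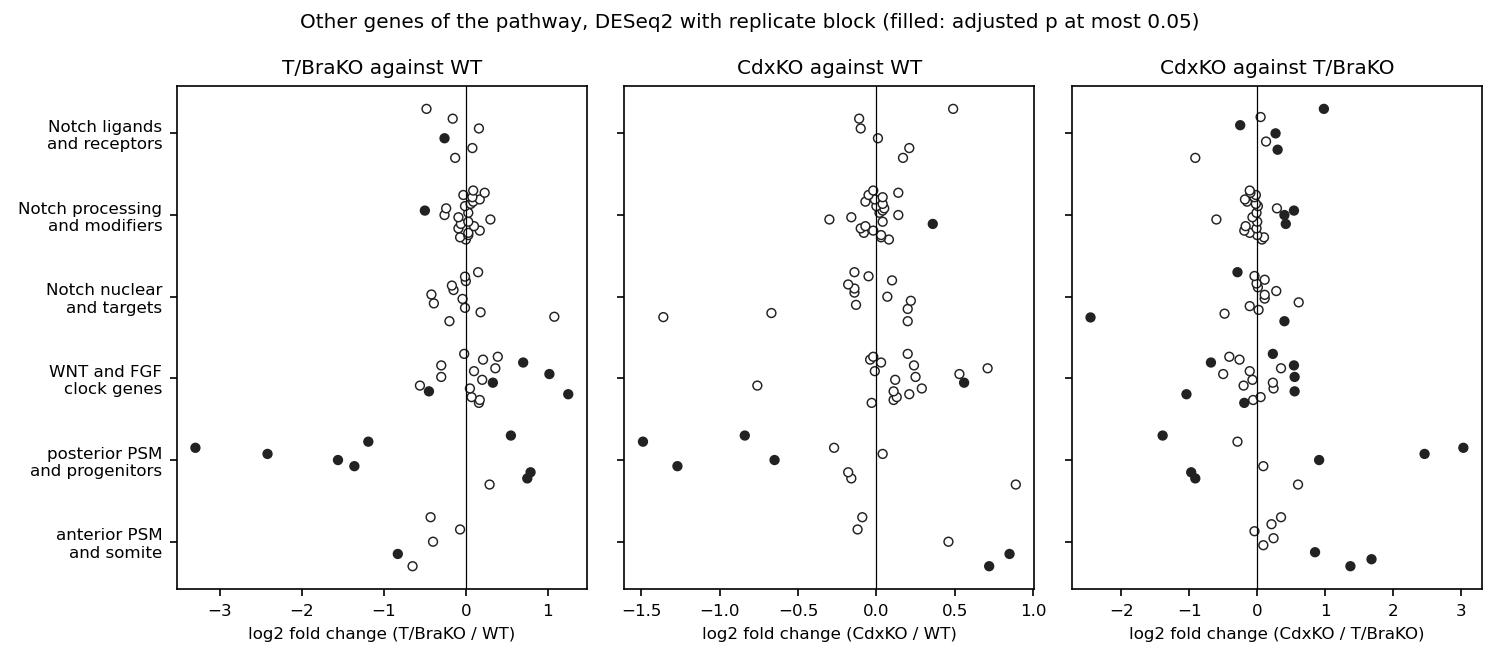
Blocked DESeq2 log2 fold changes of the other pathway genes, a point for each gene that received an adjusted p, grouped by list, in the 3 comparisons. Points are filled where the adjusted p is at most 0.05, vertical offsets only separate points, and each panel has its own horizontal scale. Most points of the Notch lists lie near 0, with Hes3 at -2.45 between the mutants, and the posterior PSM list spreads furthest in T/BraKO, down to -3.30 for Tbx6.

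The genes whose levels ran most like each member over the 9 libraries were found by Pearson's r of log2(normalised count + 1) among 12316 genes. These libraries share genotypes, replicate numbers and controls, so r is a description. For Msgn1 they were Tmem255a (r = 0.993), Cd36 (0.990) and Erap1 (0.990). For Dll3 they were Spred2 (0.996), Tek (0.963) and Antxr1 (0.959), and for Dll1 Slc8a1 (0.984), Limch1 (0.977) and Rftn2 (0.966). Hes7 was followed most closely by Sec14l2 (0.983), Ap1m1 (0.976) and Cdh6 (0.966), and Lfng by Stim2 (0.965), Spred3 (0.962) and Egr2 (0.961). The values were lower for Rspo3, with Pik3c2b (0.952), Ndrg3 (0.949) and Mum1l1 (0.939), and for Pcdh8, with Kdm2b (0.954), Utp14b (0.945) and Glis2 (0.935).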

How the data were processed

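The authors sequenced RNA of 9 cultures, 3 per genotype, on one end with reads of 76 bp that keep the strand. Per the labels and the study's methods, the authors trimmed reads with cutadapt 1.16, then aligned and quantified them with STAR 2.5.2a and RSEM 1.3.0 on RefSeq genes of mm10. The authors deposited gene-level expected counts, which are estimates that need not be whole where reads are shared between genes, and TPM, which is scaled for transcript length and library. All 10 genes studied here had whole expected counts in every library. Columns were matched to libraries by name.

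Expected counts were rounded and tested in R 4.3.3 with the Wald test of DESeq2 1.42.0, the tool named in the study's methods. Genotype was the only term, all 9 libraries entered the fit, size factors were the defaults, log2 fold changes were unshrunken, and a call was a Benjamini-Hochberg adjusted p of at most 0.05 over all genes tested. DESeq2 gives some low genes no adjusted p. TPM was used to compare levels between genes and was not tested. The replicate number comes from the library titles. For 12316 genes averaging at least 50 normalised counts, deviations from the genotype mean on the log2(count + 1) scale correlated at 0.532 to 0.814 in the 9 pairs of same-numbered libraries, each above 0.1, and at -0.69 to 0.134 in the 18 other pairs. The numbers were therefore treated as pairing the libraries, and a fit with the replicate number as a block is given beside each result whose call it changed.

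Alternatives were the block, edgeR 4.0.16 with and without it, TMM factors, a filter of 10 counts in 3 libraries, fits to the 6 libraries compared, a stricter adjusted p (0.01), a minimum log2 change of 1 in size, and leaving out each library or each replicate number. Fits of the 6 libraries with the block, and leaving out libraries with the block, were chosen after seeing the data. The scripts were tested on simulated counts. Genes named are the 10 members, checks of the labels, and, in each other list, a fixed set of core genes and up to 4 called genes of largest fold change averaging at least 50 normalised counts in the group where they are higher. The 3 genes most like each member were named where the member's mean was at least 50. The members and gene lists were chosen with earlier results of these data known. Total expected counts of 25124344 to 34705361 per library set a floor, taken as 3 counts, of 0.0864 to 0.119 CPM, which covers counting error only. Coordinates are from GENCODE M21 on GRCm38, counted from 1.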

Additional observations from a re-analysis of the deposited data

Results flagged for a closer look

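By the direct comparison of the mutants in DESeq2, 3 of 9 members differed without the replicate block and 4 of 9 with it. Over all genes, 2.52% were higher and 0.962% lower in CdxKO, and 7.75% and 6.90% with the block. Without the block the log2 difference, CdxKO minus T/BraKO, was 5.99 ± 0.72 for Msgn1, 1.14 ± 0.23 for Dll1 and 1.51 ± 0.43 for Rspo3 (adjusted p = 3.79e-14, 9.09e-05 and 0.0169). The Rspo3 call held in 3 of 12 leave-outs without the block and in 12 with it. Without the block edgeR did not make it (adjusted p = 0.221). For Dll3 it was 0.57 ± 0.12 with the replicate block (adjusted p = 0.000103), and without the block it was called when replicate 2 was left out in all genotypes (0.67, adjusted p = 0.00115) and not with all libraries. In same-numbered libraries CdxKO was higher in 3 of 3 pairs for each of these genes, by 102-fold, 29.7-fold and 48.9-fold for Msgn1 and by 1.84-fold, 1.27-fold and 1.38-fold for Dll3. The Msgn1 folds rest on 3, 2 and 5 expected counts in T/BraKO, so their size is uncertain. How many of all genes were higher in 3 of 3 pairs was not counted. Genotype and other differences between the lines cannot be told apart here.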

How the results depend on the processing

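Of the 837 values recomputed for single genes, 687 kept their direction and their side of the threshold, 61 crossed it to a call, 35 lost a call and 54 changed sign, 0 of them called. Of the 4 calls in T/BraKO against WT, edgeR without the block kept 1 (Msgn1), and leaving out a library or replicate number gave 2 to 4 without the block and 4 to 6 with it. In CdxKO against WT the count of 0 became 1 (Hes7) with the replicate block in DESeq2, in edgeR and in the 6 libraries compared, and leave-outs gave 0 to 1 with and without the block. Between the mutants, edgeR without the block kept 2 of 3 calls (Dll1 and Msgn1), and leave-outs gave 2 to 4 calls without the block and 3 to 5 with it. The block changed no other call of a member than those given in the results. Of the changes of sign, 5 came without a library left out, all between the mutants: Lfng was -0.06 with the block, -0.02 in edgeR with it and -0.04 in the 6 libraries with it, and Hes7 was -0.01 with the block in all 9 and in the 6 libraries. The rest came from leave-outs. Without the block these ran, in T/BraKO against WT, from -0.96 to 0.34 for Mesp1, -0.42 to 0.11 for Mesp2 and -0.09 to 0.39 for Lfng. In CdxKO against WT they ran from -0.17 to 0.86 for Msgn1, -0.18 to 0.26 for Dll1, -0.31 to 0.26 for Dll3 and -0.10 to 0.62 for Lfng, and between the mutants from -0.29 to 0.43 for Lfng and -0.45 to 0.47 for Hes7. With the block the values of changed sign were 0.00 for Mesp2 and -0.11 and -0.06 for Lfng in T/BraKO against WT. In CdxKO against WT they were -0.27, -0.18, -0.07, -0.13 and -0.25 for Msgn1, -0.08, -0.08 and -0.13 for Dll1, 0.03, 0.03 and 0.08 for Dll3, and -0.04 for Lfng. Between the mutants they were -0.07, -0.04, -0.05, -0.32, -0.06, -0.28, -0.22, -0.38 and -0.17 for Lfng, and -0.01 (in 4 fits), -0.06, -0.07 and -0.08 for Hes7. The cause was not tested. Over all genes, higher and lower calls in T/BraKO against WT numbered 28 and 177, 7 and 49 in edgeR, and 617 and 620 with the block. In CdxKO against WT they numbered 56 and 60, 5 and 11, and 471 and 265, and between the mutants 404 and 154, 181 and 56, and 1157 and 1030. Where a library is left out, the rest of its group is assumed to vary like the other groups. Depth limits Mesp1, Mesp2 and Ripply2, which had at most 28 counts in a library.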

Other observations

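Mesp1 and Mesp2, neighbouring genes on chromosome 7, were higher in CdxKO than in WT in 3 of 3 same-numbered pairs, by 1.42-fold, 5.77-fold and 1.18-fold for Mesp1 and by 2.04-fold, 1.13-fold and 1.59-fold for Mesp2. They were also higher in CdxKO than in T/BraKO in 3 of 3 pairs, by 2.27-fold, 4.06-fold and 1.63-fold and by 1.56-fold, 1.53-fold and 2.10-fold. These folds rest on few counts. In replicate 2, CdxKO and WT had 25 and 4 expected counts of Mesp1 and 11 and 9 of Mesp2. Neither gene was called in DESeq2 or edgeR, and the pattern was chosen after the values were seen. How many of all genes share it was not counted.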
